A study of Mus musculus with 17 samples.

Results

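The genes described here make and use glutathione and thioredoxin, the main thiol antioxidants of the cell, and were measured in cells that bronchoalveolar lavage recovers from the lungs of A/J mice. A/J is an inbred strain in which urethane, a chemical carcinogen, induces lung tumours, and cells lavaged from a healthy mouse lung are mostly alveolar macrophages. RNA was hybridised to 17 Affymetrix Mouse430_2 arrays, 11 from urethane-treated mice and 6 from untreated mice of the same age. The labels name no other agent and no engineered allele, and the dose, the time after urethane and the age are not given in the sources used here. They do not say whether each array number is 1 mouse, and control 6_13 carries a pair of numbers, so p-values cover the spread between these samples, which may be partly technical.

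The set held 34 genes, chosen by name for NRF2 control, glutathione, thioredoxin, superoxide and cysteine metabolism, and every probe set annotated to exactly 1 of them was read. Of the 34, 31 had at least 1 such probe set, 64 probe sets in all, out of 18193 genes with a probe set of their own on the array. Prdx5 and Prdx6 have none here, and the probe sets of Prdx1 are annotated to several genes, so these 3 peroxiredoxin genes are not analysed here. Probe sets had to be brighter than the 40th percentile of an array on 6 or more arrays to be kept, and 56 of the 64 were. Gsta3 (a glutathione transferase) and Sod3 (the extracellular superoxide dismutase) were below that level, which left 29 genes in a test over 13390 genes. Of these 29, 25 were above the percentile on every array, and the exceptions were Nqo1, Cdo1, Gsta4 and Gstm2.

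Cells detoxify peroxides through a pair of parallel thiol systems. Glutathione is a tripeptide whose first and rate-limiting step of synthesis is catalysed by glutamate-cysteine ligase, made of Gclc and Gclm, and glutathione peroxidases and transferases spend it on peroxides and electrophiles. Thioredoxin, reduced by thioredoxin reductase, supplies electrons to the peroxiredoxins. The transcription factor NRF2, encoded by Nfe2l2 and held in check by KEAP1, switches many of these genes on when electrophiles or oxidants modify KEAP1. Alveolar macrophages are exposed to inhaled oxidants and make oxidants of their own.

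Scan files put the arrays on 2 days, and chip lot and range of array number split the arrays in the same way. Day 1 held 5 urethane and 2 control arrays, and day 2 held 6 urethane and 4 control arrays. The 20th percentile signal, a measure of background, ran from 9.49 to 66.2 and was highest on urethane 33, 36 and 35. Its mean log2 difference between urethane and control was -0.85 on day 1 and 0.40 on day 2. Signals below are the MAS5 intensities of 1 probe set per gene, the brightest on average, and every log2 difference is urethane minus control on a log2(signal + 17.1) scale. The number of arrays limits the precision of every value. All 13 alveolar macrophage markers tested were above the 40th percentile on every array. Their summed signal ran from 175603 to 270869 on urethane arrays and from 219477 to 267183 on control arrays. Over all arrays 2 of these markers passed as higher and 1 as lower after urethane, where 3.14% of all genes passed. Compared within days, with scan day as a block, 2 were higher and 3 lower, where 7.75% of all genes passed. In the comparison of all arrays 421 of 13390 genes passed, with 63.7% of them higher after urethane, and that share was 90.6% when each array was centred on its median, which moved the median log2 difference of all genes to 0.15 from -0.03.

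The question was which antioxidant genes differ between lavage cells of urethane-treated and untreated mice. Gpx3, Cdo1 and Gstm1 rose after urethane and Gclm fell. In all 4 of 29 tested genes passed (13.8%; limma, Benjamini-Hochberg adjusted p under 0.05), against 3.14% of all genes tested, with 3 higher (2.00% of all genes) and 1 lower (1.14% of all genes). With scan day as a block, which compares urethane with control within days, 5 of 29 passed (17.2%), the same 4 and Gsto1, which fell, against 7.75% of all genes (4.31% higher and 3.44% lower). Cdo1 reached the level for testing through its urethane arrays alone, which selects for a difference, and of the other 28 genes 3 passed over all arrays and 4 with the block. None of the 29 had groups without any overlap over all arrays, and 0.471% of all genes did. The median log2 difference of the 29 genes was 0.00, and that of all genes was -0.03. Most members showed no large difference: the 95% interval lay within 2-fold in either direction for 25 of 29, against 73.1% of all genes, and the exceptions were Cdo1, Gpx3, Gsta4 and Gstm2. In these bulk samples fewer cells of a type and less RNA per cell cannot be told apart.

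**Figure D1:**
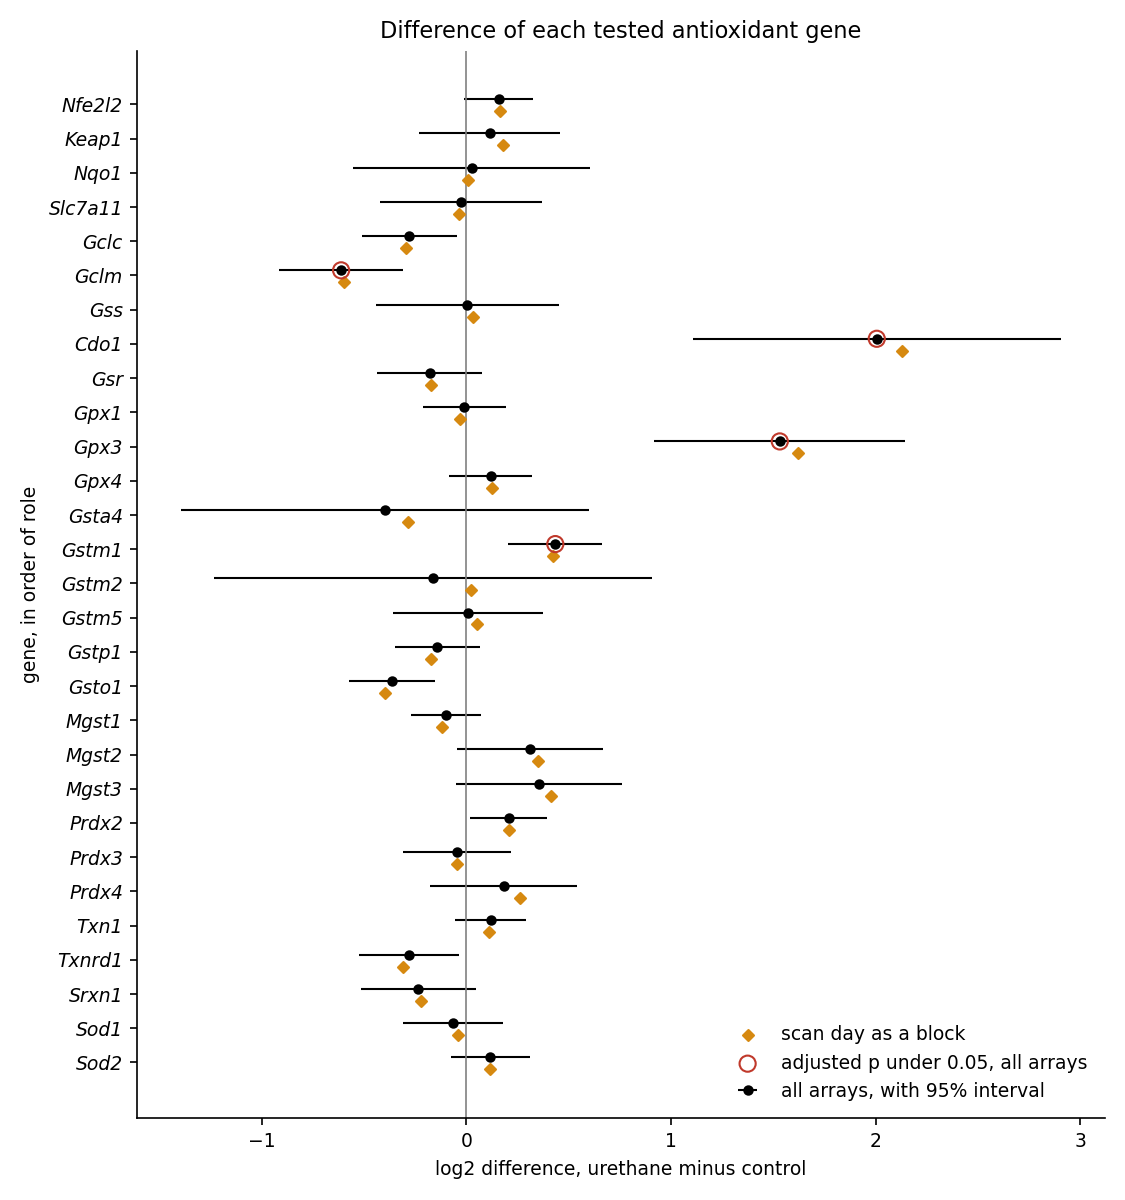
Log2 difference, urethane minus control, of the 29 tested genes in order of role; black points are all 17 arrays with their 95% interval, diamonds are the fit with scan day as a block, and red rings mark an adjusted p under 0.05. Cdo1 and Gpx3 stand far to the right at 2.00 and 1.53, Gstm1 lies at 0.43, and Gclm lies lowest at -0.61.

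The genes of NRF2 control did not pass. Nfe2l2 encodes NRF2 itself, and its signal had a lowest, median and highest value of 5140, 6119 and 6829 on urethane arrays, against 4618, 5349 and 6232 on control arrays. The groups overlapped over most of their range, although 9 of 11 urethane arrays were above the control mean. The log2 difference was 0.16 (limma, SE 0.08, adjusted p = 0.382), with 0.10 on day 1 and 0.20 on day 2. Keap1, which marks NRF2 for degradation, had a log2 difference of 0.11 (SE 0.17). Nqo1, a quinone reductase and a classical NRF2 target, had one of 0.03 (SE 0.28) and reached a signal of no more than 207 on any array. None of the 3 genes had an unadjusted p under 0.05 over all arrays (limma), where 14.7% of all genes did. Blocked by scan day 1 did, Nfe2l2, as did 19.5% of all genes.

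NRF2 binds DNA as a partner of small MAF proteins at the antioxidant response element, whose core is commonly written TGACNNNGC. The core was searched on both strands, in windows from 250 bases before to 50 bases after each start, in RefSeq promoter sequences of build GRCm38.p6. Of the 34 genes 28 had a window, and Gclc, Cdo1, Gsr, Gsta4, Prdx6 and Sod3 had none. The core was present for 9 of the 28 (32.1%), against 3781 of 27025 genes (14%), and a match is a description, not a bound site. Matches upstream of the start used for the window are shown here, because they let the 8 genes be compared by sequence. For Gclm and Txnrd1 the start used lies inside the annotated gene. Each match is in capitals with up to 16 bases on each side, 5′ to 3′ on the gene's strand.
Nfe2l2, chr2:75704879-75704913, minus strand: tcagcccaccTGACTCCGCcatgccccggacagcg
Gclm, chr3:122245407-122245447, plus strand: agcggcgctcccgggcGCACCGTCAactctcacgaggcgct
Gsta3, chr1:21240448-21240488, plus strand: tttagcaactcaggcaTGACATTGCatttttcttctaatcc
Gstm5, chr3:107895796-107895836, plus strand: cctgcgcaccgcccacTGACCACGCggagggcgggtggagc
Mgst1, chr6:138140455-138140495, plus strand: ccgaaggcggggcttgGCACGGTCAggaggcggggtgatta
Prdx1, chr4:116685450-116685490, plus strand: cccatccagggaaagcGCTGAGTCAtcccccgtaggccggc
Txnrd1, chr10:82859098-82859138, plus strand: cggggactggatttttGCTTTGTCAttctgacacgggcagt
Sod1, chr16:90220690-90220730, plus strand: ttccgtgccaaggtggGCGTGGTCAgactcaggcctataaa
In Nfe2l2, Gsta3 and Gstm5 the core lies on the gene's own strand, and in Gclm, Mgst1, Prdx1, Txnrd1 and Sod1 on the opposite strand. The ninth gene, Srxn1, had its match after the start. Of the 9 genes 7 were tested between the groups, and 1 of them, Gclm, passed. Over all arrays 4 of the 29 tested members passed (13.8%), and 3.14% of all genes did. Another 18 tested members had a window without the core, and of these Gpx3 and Gstm1 passed.

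The genes of glutathione synthesis and cysteine use moved apart: of 5 tested, Gclm fell, Cdo1 rose and 3 did not pass. Gclm encodes the modifier subunit of glutamate-cysteine ligase, which raises the activity of the catalytic subunit. Its signal had a lowest, median and highest value of 716, 1025 and 1314 on urethane arrays, against 1052, 1633 and 2034 on control arrays. All 11 urethane arrays were below the control mean, and the groups overlapped only through the day 1 controls, 6_13 and 14. Gclm was 1.53-fold lower after urethane, a log2 change of -0.61 (SE 0.15, 95% interval -0.91 to -0.31, limma adjusted p = 0.0214), and blocking by scan day gave -0.60 (adjusted p = 0.0104). A second Gclm probe set, 1439050_at, gave -0.41 (SE 0.18, limma adjusted p = 0.294).

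Gclm passed on scan day 2 and not on scan day 1. On day 2 the urethane arrays had signals from 716 to 1135 and the control arrays from 1486 to 2034, with no overlap and a log2 change of -0.88 (SE 0.15, limma adjusted p = 0.0026). On day 1 the urethane arrays had signals from 828.9 to 1314, against 1052 and 1249.7 on the 2 control arrays, and a log2 change of -0.12 (SE 0.18, limma adjusted p = 0.695). The difference between days did not pass (limma interaction adjusted p = 0.157). The second probe set, 1439050_at, gave -0.29 on day 1 and -0.47 on day 2, with groups that overlapped on both days. The Gclm call was lost with median centring (adjusted p = 0.798), where its log2 difference was -0.44, and without control 33, 35 or 37 (adjusted p of 0.0680, 0.0771 and 0.0623). The Gclm adjusted p was also above 0.05 without a variance trend (0.0533), without the 3 arrays of highest 20th percentile signal (0.0617) and with RNA ratios as covariates (0.0825).

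Gclc encodes the catalytic subunit of the same enzyme. Its signal had a lowest, median and highest value of 898, 1272 and 1481 on urethane arrays, against 1346, 1451 and 1543 on control arrays. Of the urethane arrays 10 of 11 were below the control mean, with the lowest value on urethane 33, but the groups overlapped. At a log2 difference of -0.28 (limma, SE 0.11, adjusted p = 0.214), or of -0.30 blocked by scan day (adjusted p = 0.0967), Gclc did not pass. Slc7a11, the cystine importer that feeds glutathione synthesis, had a log2 difference of -0.03 (SE 0.19), and its control arrays spanned 121 to 378. Gss, the synthetase of the last step, had one of 0.00 (SE 0.22), with -0.41 on day 1 and 0.30 on day 2.

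Cdo1 encodes cysteine dioxygenase, which oxidises cysteine towards taurine and sulfate and so takes it away from glutathione synthesis. Its signal had a lowest, median and highest value of 80.4, 132 and 563 on urethane arrays, against 6.2, 35.2 and 149 on control arrays. It was above the 40th percentile of its array on 11 of 11 urethane arrays and on 2 of 6 control arrays. The overlap came from control 37 alone, since the next control array, 6_13, had 68.1. Cdo1 was higher after urethane by 2.00 on the log2(signal + 17.1) scale (SE 0.43, limma adjusted p = 0.0111; 0.0131 with no filter on low signals). With most controls this dim, the size of the Cdo1 change depends on the value added before the log, and it was 2.63 with 1 added and 1.34 with 64 added. Over all settings run it lay between 1.34 and 3.31, so no fold is given. The 3.31 came from a block on array number, which compares only numbers 33, 35 and 36 and does not pair the samples.

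Cdo1 was brighter on the day 2 urethane arrays, at 132 to 563, than on those of day 1, at 80.4 to 130.1. The control arrays had 6.2 to 149 on day 2, and 10.1 and 68.1 on day 1. Within days the log2 change was 1.42 on day 1 (SE 0.44, limma adjusted p = 0.0640) and 2.55 on day 2 (SE 0.49, adjusted p = 0.0070). Blocking by scan day gave 2.13 (adjusted p = 0.0009), and the difference between days did not pass (limma interaction adjusted p = 0.423).

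Among glutathione reductase and the glutathione peroxidases 1 of 4 tested genes passed, Gpx3, which rose. Gpx3 is the secreted selenium-dependent peroxidase, best known from plasma. Its signal had a lowest, median and highest value of 273, 567.9 and 1539.9 on urethane arrays, against 137, 194 and 450.6 on control arrays. The high control value belonged to control 36. The other 5 control arrays were at 215 or less, below every urethane array. Gpx3 was 2.89-fold higher after urethane, a log2 change of 1.53 (SE 0.30, 95% interval 0.92 to 2.15, limma adjusted p = 0.0050). It was 1.75 without control 36 (limma adjusted p = 0.0008).

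Within scan days the Gpx3 groups did not overlap. On day 1 urethane arrays had 273 to 567.9, against 178 and 215 on control arrays, a log2 change of 1.01 (SE 0.25, limma adjusted p = 0.0278). On day 2 urethane arrays had 548 to 1539.9, against 137 to 450.6 on control arrays, a log2 change of 1.99 (SE 0.31, adjusted p = 0.0018). Blocked by scan day the change was 1.62 (SE 0.25, limma adjusted p = 0.0002), and Gpx3 passed under each of the 35 alternative settings that were run. Groups that overlap on neither day, with the same direction on both, were found for 2 of 29 members, Gpx3 and Gstm1, against 1.87% of all genes.

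The upstream sequences of Gpx3 and Gclm are shown because these genes moved in opposite directions and because no core was found for Gpx3 in its window. Each is the 250 bases before the start used for the window in GRCm38.p6, 5′ to 3′, with a match to TGACNNNGC in capitals. Both strands were searched. The annotated Gclm gene begins at chr3:122245487, so the last part of the Gclm sequence lies inside it.
Gpx3, chr11:54902604-54902853, plus strand: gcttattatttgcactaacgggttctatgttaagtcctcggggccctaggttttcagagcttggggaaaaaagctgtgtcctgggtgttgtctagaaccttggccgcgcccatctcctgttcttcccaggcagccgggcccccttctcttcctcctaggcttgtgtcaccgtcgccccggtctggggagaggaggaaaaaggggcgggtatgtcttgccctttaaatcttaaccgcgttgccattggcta
Gclm, chr3:122245307-122245556, plus strand: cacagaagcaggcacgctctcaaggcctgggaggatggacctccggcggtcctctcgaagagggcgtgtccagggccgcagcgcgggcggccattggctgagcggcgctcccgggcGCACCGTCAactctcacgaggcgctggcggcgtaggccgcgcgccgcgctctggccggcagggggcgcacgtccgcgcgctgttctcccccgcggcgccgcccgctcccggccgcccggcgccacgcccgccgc
The Gclm match starts 134 bases before the start used. Its absence upstream of Gpx3 says only that these letters are not in this window.

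Gpx1, the abundant cytosolic peroxidase, had a signal with a lowest, median and highest value of 16110.4, 21803 and 25938 on urethane arrays, against 18428, 22036.5 and 23954 on control arrays. The control range lay inside the urethane range. The log2 difference was -0.01 (SE 0.10, 95% interval -0.21 to 0.19, limma adjusted p = 0.979). Gpx4, which reduces lipid peroxides in membranes, had a log2 difference of 0.12 (SE 0.10), and Gsr, the reductase that regenerates glutathione, had one of -0.18 (SE 0.12). Neither passed.

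**Figure D2:**
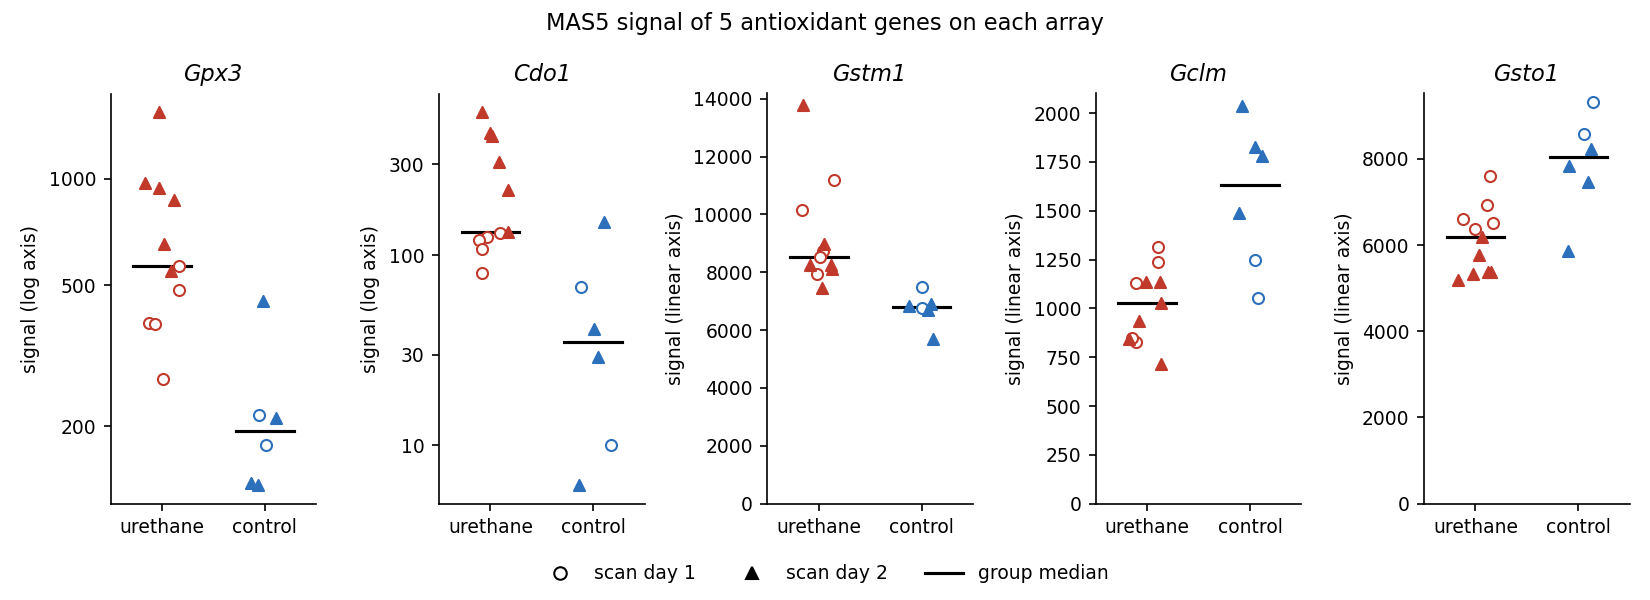
Signal of Gpx3, Cdo1, Gstm1, Gclm and Gsto1 on each array, urethane left and control right in each panel; open circles are scan day 1, filled triangles scan day 2, and bars group medians (log axis for Gpx3 and Cdo1, linear axis from 0 for the others). Control 36 stands alone among the Gpx3 controls at 450.6, and control 37 among the Cdo1 controls at 149, while the Gclm controls of day 1, at 1052 and 1249.7, lie among the urethane arrays.

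The glutathione transferases conjugate glutathione to electrophiles, and of 9 tested 1 passed over all arrays, Gstm1, and blocking by scan day left 2, Gstm1 and Gsto1. Gstm1, of the mu class, had a signal with a lowest, median and highest value of 7449, 8545 and 13780 on urethane arrays, against 5706, 6791 and 7508 on control arrays. Only urethane 34 lay below the highest control, 6_13, and all 11 urethane arrays were above the control mean. Gstm1 was 1.35-fold higher after urethane, a log2 change of 0.43 (SE 0.11, 95% interval 0.20 to 0.66, limma adjusted p = 0.0313). Neither day passed alone, with 0.38 on day 1 (limma adjusted p = 0.0752) and 0.45 on day 2 (adjusted p = 0.102).

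The 4 probe sets of Gstm1 gave log2 differences from 0.29 to 0.83 over all arrays. On day 1 the dimmer pair had negative differences, of -0.51 for 1425626_at and -0.23 for 1425627_x_at, and neither passed. The one that stood for the gene, 1416416_x_at, is of a type whose probes can also match related transcripts, and the mu class genes are close in sequence. A probe set without that mark, 1448330_at, had signals from 6722 to 12104 on urethane arrays, against 4935 to 6490.4 on control arrays. Its groups did not overlap, as for 0.364% of all probe sets kept, and its log2 difference was 0.52 (limma, SE 0.11, adjusted p = 0.0133 over all probe sets). Over all 56 antioxidant probe sets 5 passed (8.93%), against 1.97% of all probe sets. The Gstm1 call was lost in 13 of 35 settings, among them median centring (limma adjusted p = 0.531) and no variance trend (adjusted p = 0.0771). It was also lost with the mean of the Gstm1 probe sets and on each scan day alone. Leaving out control 14, 33, 35, 36 or 37 or urethane 5 or 32 lost it too (limma adjusted p from 0.0512 to 0.0703). The Gstm1 log2 difference was 0.61 with median centring, 0.39 to 0.44 without these single arrays and 0.35 to 0.61 over all settings run. The 0.35 came from the block on array number, which compares only numbers 33, 35 and 36.

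Gsto1, an omega class transferase that also reduces dehydroascorbate, had a signal with a lowest, median and highest value of 5200, 6177 and 7596 on urethane arrays, against 5853, 8040.2 and 9312 on control arrays. All 11 urethane arrays were below the control mean, and the overlap came from control 36 at the low end of the controls and urethane 9 at the high end of the urethane arrays. Over all arrays Gsto1 did not pass, at a log2 difference of -0.36 (limma, SE 0.10, adjusted p = 0.0522). Within days, as a block, the change was -0.40 (SE 0.08, limma adjusted p = 0.0016), 1.32-fold lower after urethane, and it was -0.40 on each day. The Gsto1 difference over all other arrays passed without control 36 (-0.44, adjusted p = 0.0077), urethane 3 (-0.38, adjusted p = 0.0400) or urethane 9 (-0.39, adjusted p = 0.0292). A second Gsto1 probe set, 1456036_x_at, gave -0.13 over all arrays (SE 0.27). With scan day as a block 1456036_x_at gave -0.19 (limma adjusted p = 0.780 over all probe sets), and its sign differed between days, with -0.89 on day 1 and 0.23 on day 2.

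Mgst1, a membrane-bound transferase with peroxidase activity, had a signal with a lowest, median and highest value of 15313, 19188 and 21876 on urethane arrays, against 17382, 19735 and 22524 on control arrays. The ranges overlapped, with urethane 33 lowest and 10 of 11 urethane arrays below the control mean, and the log2 difference was -0.10 (limma, SE 0.08, adjusted p = 0.652). On day 1 the groups did not overlap for Mgst1, with urethane arrays at 21876 or lower, against 22446 and 22524 on the control arrays. The difference there, -0.20, did not pass (limma adjusted p = 0.161). That day had only 2 control arrays, and on it the groups did not overlap for 10 of the 29 members. Mgst3, a related membrane enzyme, passed on day 1 alone, where its log2 difference was 0.55 (limma, SE 0.14, adjusted p = 0.0353). Over all arrays it was 0.35 (SE 0.20, adjusted p = 0.427), and the highest of all 17 Mgst3 signals, 7920, was on control 36. Day 1 gave 3 calls among the 29 members, Gpx3, Mgst3 and Gsto1, against 7.27% of all genes. Day 2 also gave 3, Cdo1, Gpx3 and Gclm, against 4.75% of all genes.

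Of the other transferases Mgst2 had a log2 difference of 0.31 (SE 0.17), Gstp1 of the pi class one of -0.14 (SE 0.10), Gstm5 one of 0.01 (SE 0.18), Gstm2 one of -0.16 (SE 0.52) and Gsta4, which conjugates the lipid aldehyde 4-hydroxynonenal, one of -0.40 (SE 0.48). None of these 5 passed. Gstm2 and Gsta4 were the least certain, with signals from 1.31 to 471 for Gstm2 and from 5.29 to 142 for Gsta4 on urethane arrays. Mgst2 had log2 differences of -0.12 on day 1 and 0.63 on day 2, and Gstm2 of -0.98 and 0.61. Gsta3, below the level for testing, had a median signal of 29.7 on urethane arrays, against 41.7 on control arrays.

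None of the 6 peroxiredoxin and thioredoxin genes tested passed in limma, over all arrays or blocked by scan day, and 2 and 3 of them had an unadjusted p under 0.05 in these fits, as did 14.7% and 19.5% of all genes. Txn1, cytosolic thioredoxin, had a signal with a lowest, median and highest value of 22491, 27860.5 and 30503.5 on urethane arrays, against 21331, 25115 and 27219 on control arrays. Of the urethane arrays 9 of 11 were above the control mean, and the groups overlapped. Txn1 had a log2 difference of 0.12 (SE 0.08), with a limma adjusted p of 0.578. Txn1 was called only with quantile normalization (adjusted p = 0.0415), where the log2 difference was 0.25.

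Txnrd1, the cytosolic thioredoxin reductase and an NRF2 target, had a signal with a lowest, median and highest value of 2662, 3444 and 3836 on urethane arrays, against 3232, 3730 and 5896.5 on control arrays. All 11 urethane arrays were below the control mean and control 37 was the highest array, but the groups overlapped. Txnrd1 did not pass, with a log2 difference of -0.28 (limma, SE 0.12, adjusted p = 0.250), or -0.31 blocked by scan day (adjusted p = 0.0808). Dimmer Txnrd1 probe sets gave -0.15 for 1424486_a_at and -0.003 for 1424487_x_at. On these, 5 and 4 of 11 urethane arrays were above the control mean. Srxn1, sulfiredoxin, which repairs overoxidised peroxiredoxins and is another NRF2 target, had signals from 657 to 932 on urethane arrays, against 716 to 1584.4 on control arrays, the last again on control 37. Its log2 difference was -0.23 (limma, SE 0.14, adjusted p = 0.451), and -0.08 without control 37. Over all arrays the 4 kept probe sets of Srxn1 gave -0.23 to 0.16.

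The peroxiredoxins reduce peroxides with electrons from thioredoxin. Prdx2, a cytosolic one, had a log2 difference of 0.21 (limma, SE 0.09, adjusted p = 0.278), with 10 of 11 urethane arrays above the control mean and 0.21 on each day. Prdx3, the mitochondrial one, had -0.05 (SE 0.13), with 0.25 on day 1 and -0.22 on day 2. Prdx4, which works in the endoplasmic reticulum, had 0.18 (SE 0.17), or 0.26 blocked by scan day (limma adjusted p = 0.0831). Within days its brightest probe set gave 0.43 on day 1 and 0.16 on day 2. Dimmer Prdx4 probe sets changed sign between days, with -0.62 and 1.01 for 1416166_a_at and -0.68 and 0.52 for 1435731_x_at.

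The superoxide dismutases turn superoxide into hydrogen peroxide, and neither of the 2 tested passed, nor did either have an unadjusted p under 0.05. Sod2, the mitochondrial enzyme, had a signal with a lowest, median and highest value of 3999.7, 5032 and 6461 on urethane arrays, against 4339.7, 4557 and 4694 on control arrays. The control arrays sat in a narrow band inside the urethane range. Sod2 had a log2 difference of 0.12 (SE 0.09, 95% interval -0.08 to 0.31, limma adjusted p = 0.628). Sod1, the cytosolic enzyme, had a log2 difference of -0.07 (SE 0.12). Sod3 was dim, with a median signal of 9.64 on urethane arrays, against 28.3 on control arrays, and a highest value of 284 on urethane 33.

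**Figure D3:**
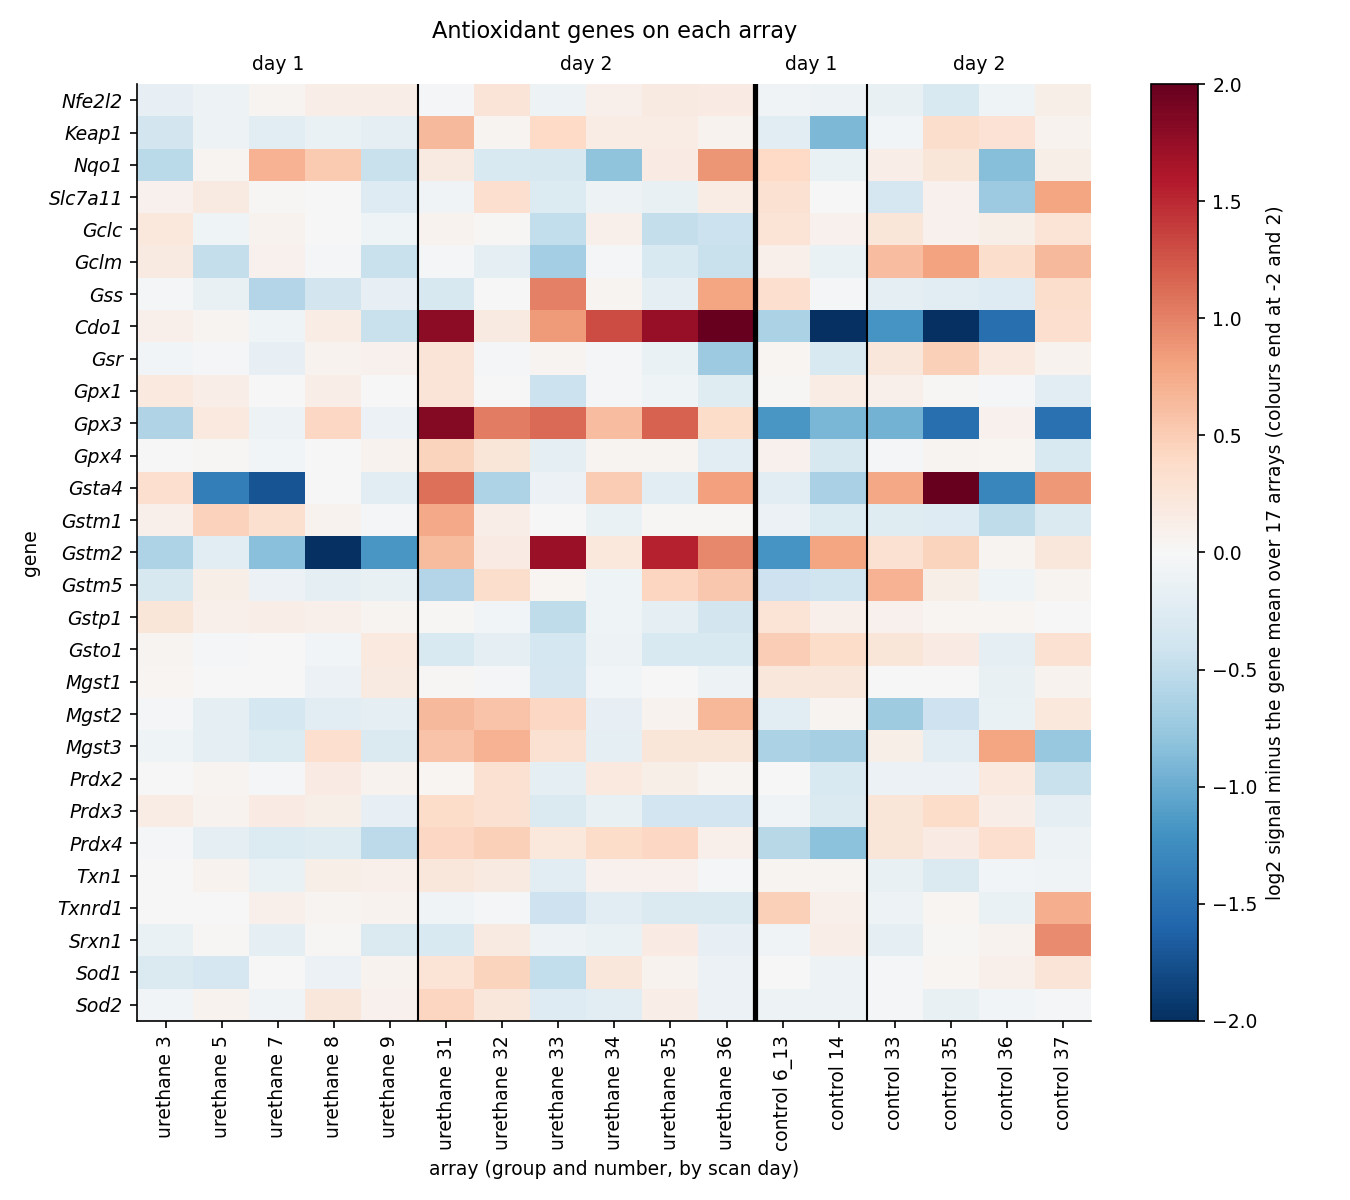
Log2(signal + 17.1) of the 29 tested genes on each array, minus the mean of the gene over the 17 arrays, with urethane arrays left of the thick line, control arrays right of it, and scan days marked. Cdo1 and Gpx3 are red on the day 2 urethane arrays, most strongly on urethane 36 for Cdo1 and on urethane 31 for Gpx3, Gclm is reddest on the day 2 controls, and Txnrd1 and Srxn1 are reddest on control 37.

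The days are compared directly in the plot of day 1 against day 2. The sign was the same on both days for 19 of the 29 members (48.8% of all genes), and the 10 others included Mgst2, Gstm2, Gss and Prdx3. No member passed the test of a difference between days (limma interaction, lowest adjusted p = 0.157, for Gclm). Only 0.0822% of all genes did, so the lack of a call does not set the members apart. In that test 3 members, Gclm, Mgst2 and Gstm2, had an unadjusted p under 0.05, as did 17.4% of all genes.

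**Figure D4:**
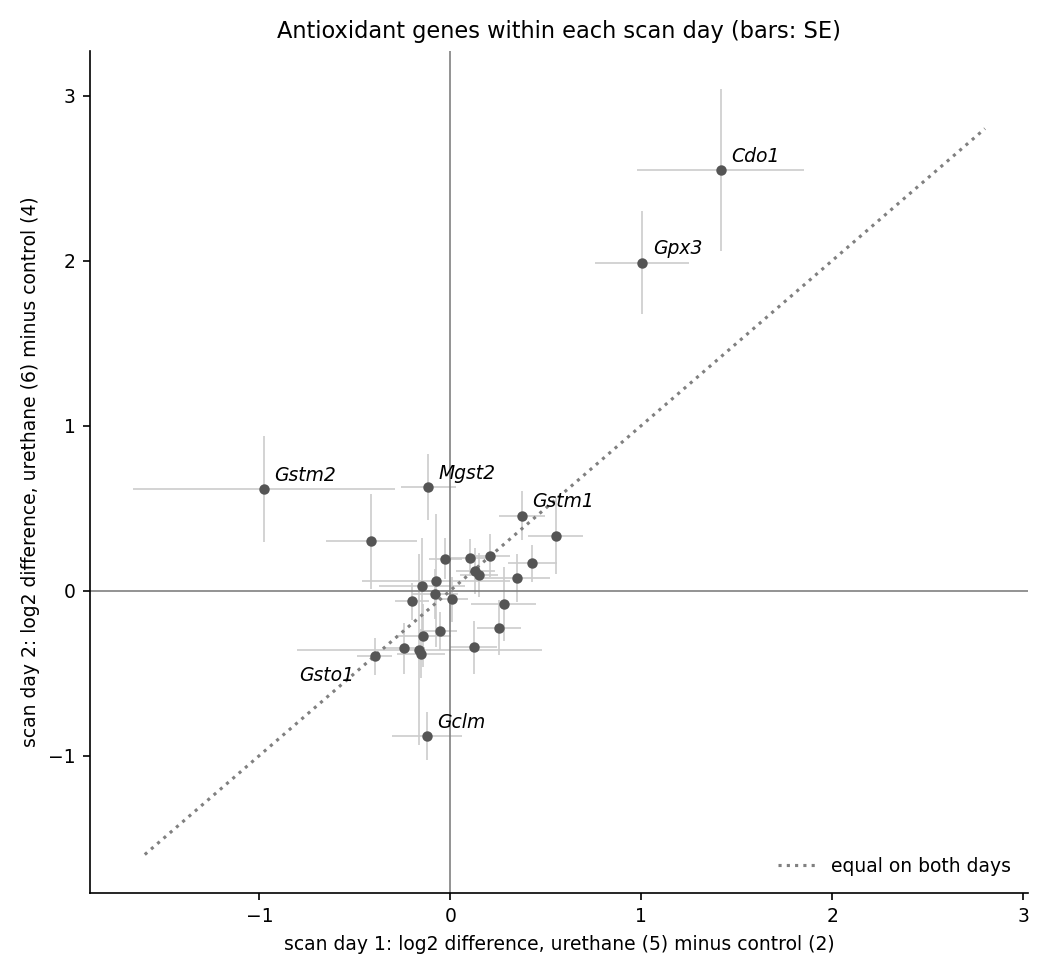
Log2 difference, urethane minus control, on scan day 1 (5 urethane and 2 control arrays, horizontal) and on scan day 2 (6 urethane and 4 control arrays, vertical) for the 29 tested genes, with SE as bars and a dotted line where both days are equal. Cdo1 (1.42 and 2.55) and Gpx3 (1.01 and 1.99) lie above the line, Gsto1 lies on it at -0.40 on both days, and Gclm lies at -0.12 and -0.88.

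Other genes of the pathway were taken from 7 lists that together name 128 genes, of which 107 were tested. Over all arrays 2 of the 107 passed (1.87%, against 3.14% of all genes), and both fell. Abcc1, an exporter of glutathione conjugates and an NRF2 target, changed by -0.52 on the log2 scale (SE 0.11, limma adjusted p = 0.0106), with -0.21 on day 1 and -0.71 on day 2. Mthfd2, a mitochondrial folate enzyme counted here with NADPH supply, changed by -0.87 (SE 0.18, limma adjusted p = 0.0066), with -0.45 on day 1 and -1.12 on day 2.

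With scan day as a block 13 of the 107 passed (12.1%, against 7.75% of all genes), 9 lower and 4 higher, and the names that follow were chosen after their values were seen. Of the NRF2 partners and targets, Sqstm1 (an autophagy adaptor that binds KEAP1) fell by 0.35, Hmox1 (haem oxygenase) fell by 0.56 and Ephx1 (epoxide hydrolase) rose by 0.61 on the log2 scale (limma adjusted p of 0.0182, 0.0495 and 0.0254). Among glutathione enzymes Oplah fell by 0.68 and Lancl1 by 0.33, and Gstm4, a mu class relative of Gstm1, rose by 0.44. Tst, the sulfur transferase rhodanese, rose by 0.98. Of the thioredoxin-fold and repair genes Glrx (glutaredoxin) fell by 0.31, Selenow fell by 0.61 and Sesn1 (sestrin) rose by 1.24. Rac1, a subunit of the NADPH oxidase, fell by 0.26. These last 8 genes, from Oplah on, had adjusted p from 0.0016 for Sesn1 to 0.0365 for Oplah. NADPH supply had no call other than Mthfd2.

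Some markers of other cells differed between the groups, most often those of airway secretory cells. Counts that follow are of markers that passed over all arrays, where 3.14% of all genes did. The part of these cells in the results above was not tested. Of 9 airway secretory markers 6 fell and none rose, with a median log2 difference of -1.24. Their summed signal ran from 3511 to 12913 on urethane arrays, against 9821 to 38271 on control arrays. The highest control sum was on control 35, and control 37 had 28966. Of 9 ciliated cell markers 1 fell, Tppp3, with a log2 difference of -1.39. The summed signal was 1550 to 3925 on urethane arrays, against 3520 to 5088 on control arrays, and Tppp3 was the brightest of the markers tested. Of 7 alveolar type 2 markers 1 fell, with sums of 4526 to 7531 on urethane arrays, against 5324 to 9787 on control arrays, the last on control 37. Control 37 was also the highest control for 10 members, among them Cdo1, Gclc, Slc7a11, Txnrd1 and Srxn1, and control 35 was for 5. Of the controls, control 37 had the highest 20th percentile signal, 28.4. It also had the highest log2 ratios of 3′ to 5′ signal, 0.05 for Gapdh and 0.26 for Actb.

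Of 7 neutrophil markers 1 rose, S100a8, with a log2 difference of 1.73, and the median of the 7 was 0.18. S100a9, Cxcr2 and Ngp were also higher, and Csf3r, Mmp9 and Ltf were lower (-0.28, -0.77 and -0.76), but none of these passed. Neutrophil sums were 4661 to 68564 on urethane arrays, the last on urethane 34, against 3273 to 9640 on control arrays, the last on control 36. Control 36 was also the highest control for Gpx3, Mgst3, Prdx2 and Prdx4. Of 8 T cell markers 3 rose, with a median log2 difference of 1.16 and sums of 8420 to 12701 on urethane arrays, against 8893 to 15142 on control arrays. The brightest of these markers, Cd2, went the other way, with a log2 difference of -0.78 (limma adjusted p = 0.127) and of -0.90 when blocked by scan day (adjusted p = 0.0016), while the 7 others had positive differences. B cell markers had 0 calls of 5, with sums of 292 to 1834 on urethane arrays and 330 to 837 on control arrays, and erythroid markers 0 of 3, with sums of 18.6 to 5392 on urethane arrays and 256 to 3707 on control arrays. Cd3d, a subunit of the T cell receptor complex, was above the 40th percentile on 11 of 11 urethane arrays and on 1 of 6 control arrays. The secretory markers Scgb1a1 and Cyp2f2, the neutrophil marker S100a8 and the surfactant gene Sftpc were above it on every array.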

How the data were processed

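RNA of lavage cells was measured in 17 samples, 11 urethane and 6 control, 1 array each. The authors deposited 1 linear intensity per probe set and array, made with MAS5 per the submitters' processing notes, with no version named. The mean after trimming 2% at each end was 500 on every array, and no further scaling was applied. Scan files gave the scan day and chip lot. The platform annotation named 1 gene for 34945 of 45101 probe sets and several for 932.

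Signals were taken as log2(signal + 17.1), where 17.1 is the array median of the 20th percentile signals. Probe sets above the 40th percentile on at least 6 arrays were kept (24468 with 1 gene), and the one of highest mean stood for each of 13390 genes. Tests used limma 3.58.1 under R 4.3.3 (lmFit, eBayes with a variance trend, two-sided, Benjamini-Hochberg over all genes tested, threshold 0.05), also with scan day as a block, within days and with a day by treatment term. On data simulated for the pooled comparison over 13390 genes, limma recovered 41% of the 1.5-fold changes and 64% of the 2-fold changes, and 4.55% of 110 calls were unchanged genes.

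The members, the pathway and marker lists, the tests and the naming rule were chosen with earlier results of these data known. By that rule all members are named, and values over the groups are given in full for members past the threshold over all arrays or with scan day as a block, for any whose groups do not overlap, and for the member of highest mean in each role. Txnrd1 and Srxn1 were given in more detail after their values were seen. By the rule other pathway genes are named where they passed over all arrays. Those that passed only with scan day as a block were named after their values were seen. The results were recomputed under 35 alternatives, of which 17 leave out 1 array and 18 change the scaling, pseudocount, filter, probe set per gene, variance model, weights, block, covariates or arrays. No 2 arrays held identical values. Numbers 33, 35 and 36 occur in both groups, and their arrays did not deviate together. Figures were drawn with matplotlib 3.10.9.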

Additional observations from a re-analysis of the deposited data

Results flagged for a closer look

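Among the 29 tested genes the highest and lowest of the 6 control arrays were compared with the nearest other control, and 2 genes had a control array far from the rest, where chance alone flags about 1 group in 20. Gpx3 was at 450.6 on control 36, while the next control was at 214.8, a gap that took up 0.631 of the control range on the log2 scale. Srxn1 was at 1584.4 on control 37, while the next control was at 900.7, a gap of 0.713 of the range. Without control 36 the Gpx3 log2 difference was 1.75, and without control 37 that of Srxn1 was -0.08.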

How the results depend on the processing

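Counts of calls moved with the settings, while no antioxidant gene called over all arrays changed direction. Some genes called only in another setting did differ in sign between settings, among them Prdx3 (-0.60 to 0.25) and Mgst2 (-0.12 to 0.80). The -0.60 and the 0.80, and the calls of these genes, came from the replicate block, whose limits are given below. Both genes also differed in sign between the scan days. The count of genes changed, 421 over all arrays, was 180 with median centring, 250 without a variance trend, 1038 with scan day as a block, 974 on day 1 alone, 636 on day 2 alone and 872 with the 20th percentile as a covariate, and 218 to 634 when 1 array was left out (220 without control 33, 218 without control 35, 634 without control 36). The count of antioxidant genes, 4, was 2 with median centring or without a variance trend, and 2 to 5 when 1 array was left out, with 2 without control 33, 35 or 37. The count of antioxidant probe sets, 5, was 2 with median centring, 3 without a variance trend, and 2 to 6 when 1 array was left out, the lowest without control 33 or 35. With scan day as a block the count of antioxidant genes, 5, was 2 with median centring, 9 with the 20th percentile or with RNA ratios as covariates, and 5 to 8 when 1 array was left out, 8 without control 36. The replicate block rests only on array numbers 33, 35 and 36, which occur in both groups, all on scan day 2. These numbers do not pair the samples (r from -0.18 to -0.01), so calls from that block are not read as results. The block gave 3024 genes, 9 antioxidant genes and 19 antioxidant probe sets. The share of calls that were higher, 63.7%, was 55.6% when blocked by scan day, 49.7% on day 2 alone, 49.5% with the 20th percentile as a covariate and 48.5% with the replicate block. Of the 29 genes 18 kept their side of the threshold in all settings run, the replicate block among them. Gpx3 passed in 35 of 35 settings (log2 difference 1.01 to 1.99), Cdo1 in 34, Gclm in 27 and Gstm1 in 22, and Gsto1 came to pass in 9. The cause of these changes was not tested. Brightness limits Nqo1, Cdo1, Gsta4 and Gstm2, which were below the 40th percentile on some arrays, and Gsta3 and Sod3, which were not tested.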

Other observations

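Members were not extreme on the same arrays in equal measure. Urethane 33 was the lowest urethane array for 12 of the 29 tested genes, among them Gclc, Gclm, Gpx1, Gstp1, Mgst1, Txn1, Txnrd1 and Sod1, and it was also the array of highest 20th percentile signal, 66.2. Urethane 31 was the highest urethane array for 10 genes, among them Gpx1, Gpx3, Gpx4, Gstm1, Txn1 and Sod2, and urethane 32 for 7. Controls 14 and 36 were each the lowest control for 8 genes.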
